A study of Mus musculus with 4 samples.

Results

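The genes examined here were Cfd, Agt, Adipoq, Lep and Retn, which encode hormones and other secreted proteins and were chosen by gene symbol, 5 of the 84 genes on a mouse adipogenesis PCR array. The array was run on liver RNA of C57BL/6J mice, males aged 2 months at the start, and gave 1 sample in each of 4 groups. The ND group received a normal-calorie diet (3.85 kcal/g, of which carbohydrate gave 70%, protein 20% and fat 10%), and the HFD group a high-fat diet (5.24 kcal/g, of which fat gave 60% and carbohydrate and protein 20% each). The ND + *mol*-miR pool and HFD + *mol*-miR pool groups received the same diets and, by oral gavage on alternate days, a pool of small RNAs purified from *Moringa oleifera* (*mol*-miRs). Diets lasted 5 weeks, and each group held 3 of the 12 mice. The sources used here do not say whether the RNA of several livers was combined, so each difference below is one between 2 samples, with no replicate error and no test. The samples are called by their labels, and the columns of the ND samples in the deposited table carry the abbreviation of low-fat diet. Every direction below rests on these column names, which no measured value here checks against the diets, and a direction would turn if the columns of a comparison were exchanged.

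Fat cells release proteins called adipokines, through which adipose tissue signals to the brain, liver and vessels. Adiponectin (Adipoq), leptin (Lep) and, in mice, resistin (Retn) are known as products of fat cells rather than of hepatocytes. Angiotensinogen (Agt), the precursor of the angiotensins that raise blood pressure, is made in large amounts by the liver. Complement factor D (Cfd), also called adipsin, is a protease of the alternative complement pathway. It was placed with Agt among the liver-made genes by the rule used here, although in mice it is best known as a fat-cell product.

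The value measured was the threshold cycle (Ct), the PCR cycle at which the product of a well becomes visible, so that 1 cycle less stands for 2 times the template. Each plate also carried a genomic DNA control well, whose primers copy a stretch of DNA that is not transcribed, and 5 reference genes (Actb, Gapdh, Gusb, Hprt and Hsp90ab1). The mean Ct of the reference genes lay between 21.6 and 22.2 in the 4 samples. That of the genomic DNA control was 26.8 for ND and 34.7 for HFD, and 28.8 for ND + *mol*-miR pool and 33.4 for HFD + *mol*-miR pool, so the samples differed far more in this well than in the reference genes. The repeated wells were few. The 3 positive PCR control wells of ND + *mol*-miR pool had an SD of 0.057 cycles, the 2 with a Ct in ND differed by 0.927 cycles, and both HFD samples had 1 such well with a Ct each. The median Ct of these wells moved with diet, from 17.4 in ND and 18.4 in ND + *mol*-miR pool to 21.2 and 22.0 on the HFD plates, and the part of this shift in the values below was not tested. Of the 3 reverse transcription control wells of each plate, 2 had a Ct in ND + *mol*-miR pool (28.6 and 29.4) and 0 had one in the other samples. Genes that hepatocytes use (Nr1h3, Ppara, Rxra and Nr0b2) had a Ct from 20.7 to 28.2 in the 4 samples, and albumin was not among the genes measured.

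The 5 genes fell into 3 patterns. Agt stayed nearly level, Adipoq, Lep and Retn moved together, and Cfd moved on its own. Among the 82 genes with a Ct in all samples, Cfd had the largest rise with the pool on the high-fat diet. The 250 bases before the RefSeq start of Cfd and of the 3 genes that moved together are shown here from the mouse assembly GRCm38.p6. Matches to 4 promoter motifs are in capitals, in order to show whether these genes share such motifs.
Adipoq, chr16:23146286-23146535, plus strand: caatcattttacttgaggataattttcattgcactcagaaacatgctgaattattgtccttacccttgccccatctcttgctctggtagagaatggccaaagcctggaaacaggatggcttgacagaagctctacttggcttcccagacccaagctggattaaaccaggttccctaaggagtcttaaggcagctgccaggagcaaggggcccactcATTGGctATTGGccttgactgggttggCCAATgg
Lep, chr6:29059971-29060220, plus strand: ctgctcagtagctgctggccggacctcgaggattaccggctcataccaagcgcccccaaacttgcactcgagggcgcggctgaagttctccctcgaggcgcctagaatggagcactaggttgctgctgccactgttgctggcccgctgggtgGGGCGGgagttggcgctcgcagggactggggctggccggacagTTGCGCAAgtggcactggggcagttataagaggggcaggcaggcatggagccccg
Retn, chr8:3655520-3655769, plus strand: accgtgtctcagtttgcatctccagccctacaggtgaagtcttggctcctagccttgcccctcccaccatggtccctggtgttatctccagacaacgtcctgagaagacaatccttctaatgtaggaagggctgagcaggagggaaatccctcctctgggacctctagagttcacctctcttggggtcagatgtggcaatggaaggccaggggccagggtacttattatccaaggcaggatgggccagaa
Cfd, chr10:79890603-79890852, plus strand: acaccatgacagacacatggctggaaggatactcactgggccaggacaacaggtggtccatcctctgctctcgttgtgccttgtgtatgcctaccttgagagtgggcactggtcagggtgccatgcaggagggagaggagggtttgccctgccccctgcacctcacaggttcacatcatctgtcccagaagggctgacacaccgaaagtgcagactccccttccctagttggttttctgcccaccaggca
The motifs searched on both strands were the TATA box (TATAAA), the CCAAT box (CCAAT), a pair of C/EBP half-sites (TTGCNNAA) and the GC box (GGGCGG). Of 32851 mouse promoters of the same length, 12.4%, 33.8%, 9.56% and 32.7% held them, in that order. Adipoq had 3 CCAAT matches, at 34, 27 and 7 bases before the start, the first 2 of them on the reverse strand. Lep had TTGCGCAA, a C/EBP match that reads the same on both strands, at 55 bases and GGGCGG at 98 bases before the start. Retn and Cfd had no match in this window, and Agt, not printed, had TATAAA at 30 bases before the start. None of the 4 motifs was found in all 3 genes that moved together. GC content was 48.8% for Adipoq, 65.6% for Lep, 54.8% for Retn and 57.6% for Cfd, against a median of 52.4% over all promoters.

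Agt had a Ct of 23.5 in ND, 24.0 with the pool on this diet, 23.3 in HFD and 23.9 with the pool on that diet. These values lay within 0.676 cycles. After subtraction of the mean reference Ct, the Ct of Agt (delta Ct) was 1.90, 1.86, 1.39 and 1.71, respectively, a range of 0.508 cycles, while the median range of the 84 genes was 2.76. This was the smallest range among the 82 genes with a Ct in all samples, and it was also the smallest with Actb alone as the reference. With the other references tried it was larger, and with the median Ct of the array genes, which itself moved, it reached 3.20 cycles and the 63rd place from the smallest.

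The Ct of Adipoq was lowest in ND (25.86), followed by ND + *mol*-miR pool (28.15), HFD + *mol*-miR pool (29.96) and HFD (32.50). Lep kept the same order, with 25.55, 27.29, 29.90 and 31.96. Retn did too, with 26.3, 28.8, 31.4 and 32.9. All 3 fat-cell hormone genes therefore had most template in the sample labelled ND and least in the sample labelled HFD, over ranges of delta Ct of 6.31 cycles for Adipoq, 6.09 for Lep and 6.35 for Retn. Their distances from each other changed little. Within a sample, where no reference gene is needed, the Ct of Lep minus that of Adipoq was between -0.861 and -0.064 cycles, and the Ct of Retn minus that of Adipoq between 0.408 and 1.48. By contrast, the difference in Ct between Agt and Adipoq ran from 2.35 cycles in ND to 9.17 in HFD.

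Cfd had a Ct of 24.67 in ND and 28.97 in HFD, and of 22.54 and 21.82 in the pool samples of these diets. The delta Ct was 3.06 and 7.04, and 0.39 and -0.42, in the same order. The level of Cfd was therefore highest in the 2 samples given the pool and lowest in HFD. None of the other 4 genes had this order, but other array genes, such as Pparg and Ppara, had it over smaller ranges. The delta Ct of Pparg was 1.70 in ND and 3.43 in HFD, and 1.45 and 0.945 in the respective pool samples. For Cfd the 2 pool samples were neighbours in this order and lay 0.807 cycles apart. The range of 7.45 cycles was the largest of the 82 genes with a Ct in all samples. With the other references tried it took the 1st to the 9th place, the 9th with Hsp90ab1 alone. Cfd was the 7th earliest of 84 genes in ND + *mol*-miR pool and the 8th earliest of 83 in HFD + *mol*-miR pool, but the 27th of 84 in ND and the 48th of 83 in HFD. The difference in Ct between Cfd and Adipoq, again free of any reference, was 1.19 cycles in ND and 3.53 in HFD, and rose to 5.61 and 8.15 in the respective pool samples.

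**Figure D1:**
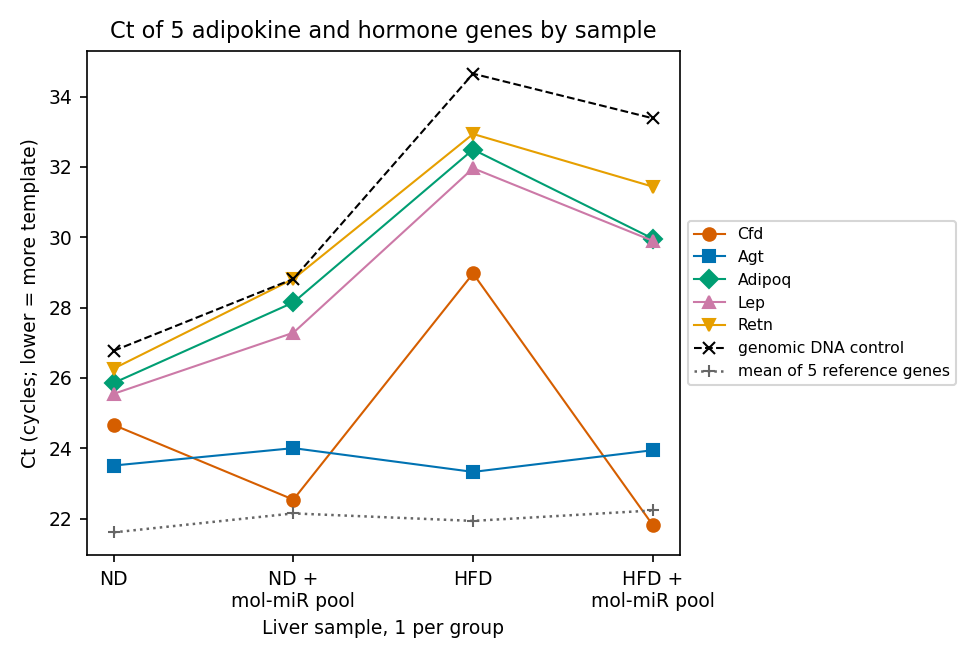
Ct in cycles (lower means more template) of the 5 genes, the genomic DNA control and the mean of the 5 reference genes, in 1 liver sample per group; lines join the wells of 1 gene and are no time course. Adipoq, Lep and Retn follow the genomic DNA control from 26.8 in ND to 34.7 in HFD, Agt stays between 23.3 and 24.0, and Cfd drops to 21.8 in HFD + mol-miR pool.

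The first comparison, HFD vs. ND, asks what the high-fat diet did. Adipoq, Lep and Retn were lower in the sample labelled HFD by 79.4-fold, 68.0-fold and 81.3-fold, or log2 fold changes of -6.31, -6.09 and -6.35. Cfd was lower by 15.8-fold (-3.98). Agt was at 1.42-fold (0.51), between the limits of 1.5 and 0.5 that the study uses for upregulated and downregulated genes. So 4 of the 5 genes were downregulated and 0 upregulated, but 72.6% of all 84 genes were downregulated and 3.57% upregulated, and the count alone does not set these genes apart. The median log2 fold change was -6.09 for the 5 genes and -2.53 for the 84. Retn, Adipoq and Lep took the 7th, 9th and 13th place from the lowest of the 84 values, and Agt the 5th from the highest. With the median Ct of the array genes as the reference, 35 of the 84 genes were upregulated and 30 downregulated in place of 3 and 61. Even so Adipoq (-3.62), Lep (-3.40), Retn (-3.66) and Cfd (-1.29) remained below the limit, while Agt rose past it (3.20).

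The genomic DNA control well moved in the same direction. From ND to HFD its Ct rose by 7.88 cycles, and those of Retn, Adipoq and Lep were later by 6.67, 6.64 and 6.42 cycles. The Ct of Cfd changed by 4.31 cycles and that of Agt by -0.181. Normalised like a gene, the control well had a log2 change of -7.55, beyond that of each of the 5 genes. Its part in the differences was not tested. When its template was subtracted from each well, the log2 fold changes were -5.72 for Adipoq, -5.66 for Lep, -5.25 for Retn, -3.77 for Cfd and 0.53 for Agt.

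The comparison of HFD + *mol*-miR pool vs. HFD asks what the pool did on the high-fat diet. Cfd was higher by 175.0-fold (log2 fold change 7.45), the largest value on the array. That of Lrp5 (6.16) is a lower bound, since Lrp5 had no Ct in HFD and was set to 35. Adipoq was higher by 7.12-fold (2.83), Lep by 5.14-fold (2.36) and Retn by 3.47-fold (1.80). Agt was at 0.801-fold (-0.32). Hence 4 of the 5 genes were upregulated and 0 downregulated, against 84.5% and 1.19% of the 84 genes. The median was 2.36 for the 5 genes and 1.46 for all 84. Adipoq held the 6th, Lep the 18th and Retn the 33rd place from the highest, so that Retn was close to the middle of the array. Agt was the 3rd lowest. The rise of Cfd lay between 6.20 and 8.46 over the 7 other references, whereas that of Retn fell to 0.54, between the limits, when the median Ct of the array genes was the reference. This gave 31 upregulated and 7 downregulated genes over the array in place of 71 and 1. The direction of Agt depended on the reference. It was upregulated with Gapdh alone (0.69) or Actb alone (0.63), and downregulated with the median Ct of the array genes (-1.57). With the pool, the Ct of the genomic DNA control changed by -1.27 cycles, and those of Retn, Lep, Adipoq and Cfd by -1.498, -2.07, -2.53 and -7.15 cycles. That of Agt changed by 0.617.

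HFD + *mol*-miR pool vs. ND sets the treated high-fat sample against the untreated normal diet, and it shares a sample with each of the comparisons above. Cfd was 11.1-fold higher (3.47), again the highest of the 84 values. Adipoq, Lep and Retn were lower by 11.2-fold (-3.48), 13.2-fold (-3.73) and 23.4-fold (-4.55), and Retn was the second lowest gene of the array. Agt was at 1.14-fold (0.19). This made 1 gene upregulated and 3 downregulated, while 14.3% of the 84 genes were upregulated and 53.6% downregulated. With Gapdh alone, which moved this split most, 39 genes were upregulated and 27 downregulated in place of 12 and 45. Cfd then stood at 5.03, Adipoq at -1.93, Lep at -2.17 and Retn at -3.00. The Ct of the control well was higher than in ND by 6.61 cycles, and Adipoq, Lep and Retn were later by 4.10, 4.35 and 5.17 cycles.

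On the normal diet, ND + *mol*-miR pool vs. ND, Cfd was higher by 6.34-fold (2.66), second only to Irs1 on the array. Retn was lower by 4.02-fold (-2.01), Adipoq by 3.36-fold (-1.75) and Lep by 2.29-fold (-1.20). Agt was at 1.03-fold (0.05). The counts were 1 upregulated and 3 downregulated, against 4.76% and 48.8% of the 84 genes. Retn was the second lowest value, whereas Lep, in the 34th place from the lowest, was near the median of the array (-0.99). With the median Ct of the array genes, Adipoq (-0.81) and Lep (-0.26) were between the limits, as Lep was with Gusb alone (-0.97) or Gapdh alone (-0.46), and 18 genes were upregulated and 3 downregulated in place of 4 and 41. With the pool the Ct of the control well changed by 2.05 cycles, that of Retn by 2.55, Adipoq by 2.29, Lep by 1.74 and Cfd by -2.12. With the control's template subtracted, the log2 fold change of Retn was -6.53. Its Ct in ND + *mol*-miR pool was 0.002 cycles before that of the control. What was left after subtraction was set to the Ct limit of 35, so the value of -6.53 depends on that limit.

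Between the 2 pool samples, HFD + *mol*-miR pool against ND + *mol*-miR pool, the fat-cell hormone genes had lower values on the high-fat diet with the mean of the 5 reference genes. The fold was 3.32 for Adipoq (log2 fold change -1.73), 5.77 for Lep (-2.53) and 5.82 for Retn (-2.54), and downregulation held for 34.5% of the 84 genes. Cfd was at 1.75-fold (0.81), above the limit as for 23.8% of the genes, but it was between the limits with Hsp90ab1 alone (0.13), Gusb alone (0.31) or the mean of Gusb, Hprt and Hsp90ab1 (0.44). Agt was at 1.10-fold (0.14). With Gapdh alone, 44 genes were upregulated and 23 downregulated in place of 20 and 29. The value of Retn rested on a single well at the level of the genomic DNA control. In ND + *mol*-miR pool its Ct was 0.002 cycles before the control, and with the control's template subtracted its log2 fold change became 3.17. That value depends on the Ct limit of 35, to which the subtracted well was set. Adipoq came between the limits with the same subtraction (-0.49) and with Gapdh alone (-0.92), whereas Lep stayed below the limit in both (-2.09 and -1.71).

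**Figure D2:**
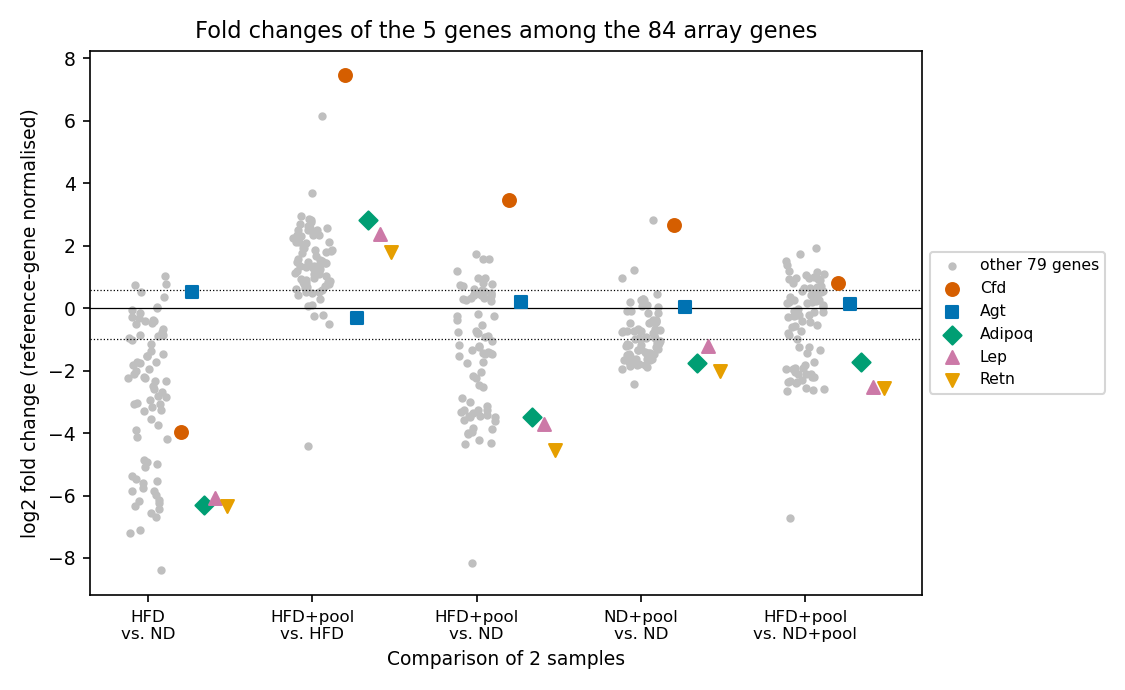
Log2 fold change (vertical axis) in 5 comparisons of 2 samples each (horizontal axis), normalised to the mean of the 5 reference genes; coloured symbols are the 5 genes, grey points the other 79 array genes, and dotted lines the limits of 1.5 and 0.5. Cfd is the highest point of the array in the comparisons of HFD + mol-miR pool with HFD (7.45) and with ND (3.47), Agt stays between -0.32 and 0.51, and Lrp5 in HFD and Shh in HFD + mol-miR pool, which had no Ct, are drawn with a Ct of 35.

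The distance to the genomic DNA control was then compared within each sample, since it needs no reference gene and no second sample. In ND, Agt had its Ct 3.26 cycles before the control, Cfd 2.11, Lep 1.22, Adipoq 0.914 and Retn 0.506. Of the 5 genes 4 were less than 3 cycles before the control, and so were 75.0% of the array genes in this sample. In ND + *mol*-miR pool the distance was 6.28 cycles for Cfd, 4.81 for Agt, 1.53 for Lep, 0.67 for Adipoq and 0.002 for Retn. There 3 genes were within the limit of 3 cycles, beside 65.5% of the array. In both samples Agt and Cfd were farther from the control than Adipoq, Lep and Retn, but in ND the nearest of both sets, Cfd and Lep, were only 0.884 cycles apart.

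In HFD, Agt was 11.3 cycles before the control, Cfd 5.68, Lep 2.69, Adipoq 2.16 and Retn 1.71. Only 20.5% of the array genes with a Ct were less than 3 cycles before the control in this sample, and Adipoq, Lep and Retn were among them. In HFD + *mol*-miR pool, Cfd was 11.6 cycles before the control, Agt 9.44, Lep 3.49, Adipoq 3.42 and Retn 1.94. Retn was 1 of 8 genes (9.64%) still within the limit. The gap between the nearer of Agt and Cfd and the farthest of the other genes was 3.28 cycles where the pool was given with ND, 2.99 in HFD and 5.95 where the pool was given with HFD. Over the 4 samples, the distance ranged over 1.94 cycles for Retn, 2.26 for Lep and 2.75 for Adipoq, and over 8.06 for Agt and 9.46 for Cfd.

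As amounts, with a doubling in each cycle, the template in the genomic DNA control well equalled 53.1% of that in the Adipoq well in ND, 62.9% with the pool on ND, 22.4% in HFD and 9.33% with the pool on HFD. For Retn it equalled 70.4%, 99.9%, 30.5% and 26.0%, and for Lep 42.8%, 34.6%, 15.5% and 8.93%. For Agt the same share fell from 10.4% in ND to 0.039% in HFD, and for Cfd it was 23.2% in ND and 0.033% in HFD + *mol*-miR pool. Whether the assays of these genes copy genomic DNA as the control does was not tested.

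**Figure D3:**
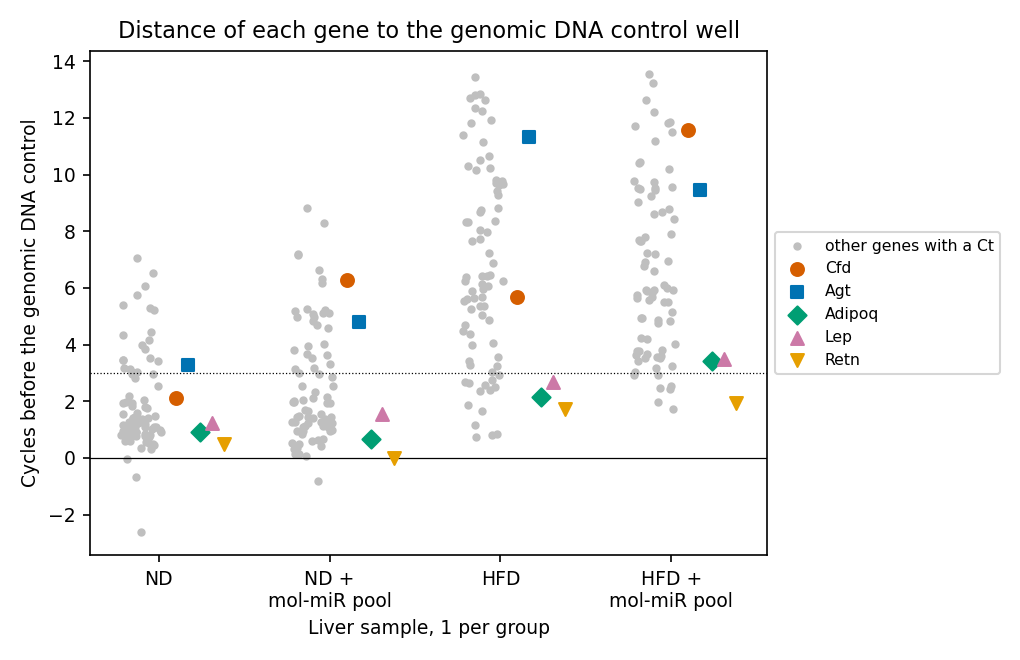
Cycles by which each gene crossed the threshold before the genomic DNA control of the same sample (vertical axis), in 1 liver sample per group; coloured symbols are the 5 genes, grey points the other genes with a Ct, the dotted line 3 cycles and the solid line the control itself. Adipoq, Lep and Retn lie between 0.002 and 3.49 cycles before the control in all 4 samples, and Agt and Cfd reach 11.3 and 11.6 cycles.

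Genes with a like profile were sought among the 82 genes with a Ct in all samples, by the root mean square difference of delta Ct over the 4 samples after each gene's mean was removed. The nearest to Adipoq were Prdm16 (0.101 cycles), Gata2 (0.154) and Foxc2 (0.179). Lep was nearest to Sfrp5 (0.152), Dio2 (0.17) and Gata2 (0.182), and Retn to Ucp1 (0.188), Fgf10 (0.199) and Sfrp5 (0.245). Ucp1, Dio2 and Prdm16 are known for heat production in brown fat, Gata2 and Foxc2 encode transcription factors, Sfrp5 a Wnt antagonist and Fgf10 a growth factor. Prdm16, like the 3 hormone genes, had a Ct close to the genomic DNA control, with a distance before it of -0.819 to 1.72 cycles. Other neighbours were close too. The distance was 0.634 to 2.92 cycles for Ucp1, 0.652 to 2.52 for Fgf10 and 0.338 to 2.45 for Sfrp5. It was 1.17 to 3.67 for Gata2 and 1.24 to 3.79 for Dio2. The distance between the hormone genes themselves was 0.293 cycles for Adipoq and Lep, 0.357 for Lep and Retn and 0.433 for Adipoq and Retn. Agt was nearest to Fasn (0.336), the fatty acid synthase, Ccnd1 (0.349) and Klf3 (0.401). No gene was close to Cfd. The nearest were Jun (1.82), Egr2 (1.96) and Pparg (2.01), whereas the median over all genes compared was 2.64.

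Other genes of fat cells were read beside the hormone genes. The array held 7 (Adig, Fabp4, Lpl, Lipe, Pparg, Cebpa and Slc2a4), and in HFD vs. ND 6 of them were downregulated and 0 upregulated, with a median log2 fold change of -1.997, while 72.6% of the array was downregulated with a median of -2.53. Adig, a gene of fat-cell differentiation, had the lowest value (-5.38) and Cebpa the highest (-0.41). With the pool on HFD 6 were upregulated and 0 downregulated, beside 84.5% of the array upregulated. With the pool on ND 4 were downregulated and 0 upregulated, beside 48.8% downregulated. These shares are near those of the array. Their summed level, relative to the reference genes, was 190.5% in ND and 61.2% in HFD, and 133.1% and 151.3% in the respective pool samples. Fabp4, the fatty acid carrier of fat cells, and Lpl, the lipase of lipoproteins, had a Ct from 22.31 to 25.02 in all samples. Both were 3.84 cycles or more before the genomic DNA control, unlike Adipoq. Adig, Lipe and Slc2a4 lay nearer to the control on the normal diet. Their distances were 1.39, 1.25 and 2.17 cycles in ND, and 1.26, 1.43 and 1.96 in ND + *mol*-miR pool. So 3 of the 7 genes were less than 3 cycles before the control in each of these samples. On the high-fat diet 0 of the 7 were that close, with or without the pool. In bulk liver RNA, fewer cells of a type and less RNA per cell cannot be told apart. Whether the RNA of these 7 genes came from fat cells or from other cells of the liver was not tested. The part of fat cells in the samples was not tested either.

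The 3 brown-fat genes (Ucp1, Dio2 and Prdm16) were all downregulated in HFD vs. ND and all upregulated with the pool on HFD, and so were the 4 genes of preadipocytes and stroma (Dlk1, Twist1, Gata2 and Gata3), where 72.6% of the array was downregulated and 84.5% upregulated. In ND all 7 of these genes were less than 3 cycles before the genomic DNA control, as were Adipoq, Lep and Retn and 75.0% of the array. In HFD 3 of the 3 brown-fat genes and 3 of the 4 of preadipocytes and stroma were that close, beside 20.5% of the array. In HFD + *mol*-miR pool 2 of the 3 and 1 of the 4 were, beside 9.64%. Of the 4 hepatocyte genes, 3 were downregulated in HFD vs. ND and 3 upregulated with the pool on HFD, shares near those of the array. Their summed level was 237.2% of the reference genes in ND and 126.3% in HFD, and 183.9% and 326.3% in the respective pool samples. This sum rested mostly on Nr1h3, with a delta Ct of -0.90 and -0.14, and -0.51 and -1.47, in the same order. The other genes of this list had a delta Ct of 1.41 or more. Agt, also a hepatocyte product, stayed nearly level. The part of the hepatocyte genes in the values of the 5 genes was not tested.

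The array also held 4 regulators of adipokine genes. Pparg, the nuclear receptor that drives fat-cell differentiation, had log2 fold changes of -1.73 for the high-fat diet (HFD vs. ND) and 2.49 for the pool on that diet. Cebpa stood at -0.41 and 0.67, Klf15 at -0.14 and 0.62, and Srebf1, a regulator of lipid synthesis, at 0.75 and 0.43. In HFD vs. ND 1 of these genes was upregulated and 1 downregulated, against 3.57% and 72.6% of the array. With the pool on HFD 3 were upregulated and 0 downregulated, against 84.5% and 1.19%. In ND + *mol*-miR pool vs. ND 0 were upregulated and 0 downregulated, against 4.76% and 48.8%. All 4 were 3.46 cycles or more before the genomic DNA control in every sample.

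Of the 16 other genes for secreted factors (growth factors, Wnt proteins and Wnt antagonists), 15 were downregulated and 0 upregulated in HFD vs. ND, with a median log2 fold change of -4.998, against 72.6% and -2.53 over the array. Wnt1 had the lowest value (-7.19) and Fgf1 the highest (-0.86). In ND, 15 of the 16 lay less than 3 cycles before the genomic DNA control, the exception being Fgf1 (5.22 cycles), and so did 75.0% of the array. In HFD + *mol*-miR pool vs. HFD, 15 were upregulated and 1, Shh, was downregulated, with a median of 2.26, against 84.5% upregulated and a median of 1.46 over the array. Adipoq, Lep and Retn were within the span of these genes in both comparisons, and Agt (0.51) was above it in the first, and Cfd (7.45) above it in the second. Without Shh the lowest value in the second was 1.26 (Bmp4), and Agt (-0.32) lay below it.

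**Figure D4:**
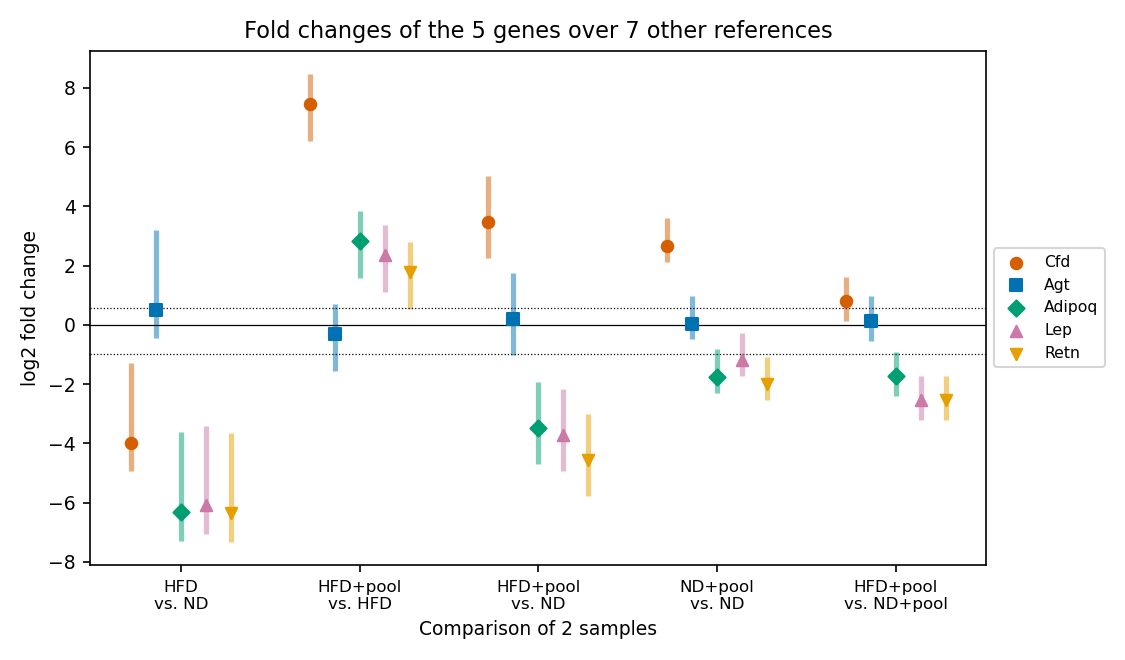
Log2 fold change of the 5 genes (vertical axis) in 5 comparisons (horizontal axis); symbols are values with the mean of the 5 reference genes, and bars span the lowest to the highest value over 7 other references (each reference gene alone, the median Ct of the array genes, and the mean of Gusb, Hprt and Hsp90ab1). The bar of Cfd in HFD + mol-miR pool vs. HFD runs from 6.20 to 8.46, and those of Agt cross 0 in every comparison.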

How the data were processed

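Liver RNA of 4 samples, 1 per group, was measured on the Mouse Adipogenesis RT2 Profiler PCR Array with SYBR Green. The authors deposited a score per well, the Ct as exported, without normalization, for 96 wells with 1 well per gene. Missing values, written there as undetermined, and values above 35 were set to 35. A second deposited table holds the authors' own fold changes for 4 comparisons and was not used. Columns were assigned to samples by name, low-fat diet standing for ND.

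The mean Ct of the 5 reference genes was subtracted, and the difference between 2 samples, with its sign turned, was taken as the log2 fold change, assuming a doubling in each cycle. With 1 sample per group there was no test, and precision, limited by single wells, could not be estimated. The genes named were the 5 genes, the controls, the 3 nearest profiles of each gene, and from fixed lists of fat-cell, brown-fat, hepatocyte, preadipocyte, secreted-factor and regulator genes the counts, the extremes and the regulators. The members and lists were chosen with earlier results of these data known. The promoter motifs were also chosen with those results known. Promoters came from RefSeq (GRCm38.p6), in which 5 of the 5 genes matched. The alternatives were other references, Ct limits, fold limits, distance limits and subtraction of the genomic DNA control. The calculations were tested on simulated data and run in Python 3.11.15 with numpy 2.4.6, pandas 2.3.3 and matplotlib 3.10.9.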

Additional observations from a re-analysis of the deposited data

Results flagged for a closer look

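The pool was followed by opposite changes on the 2 diets for the fat-cell hormone genes, which, with the mean of the 5 reference genes, were past the lower limit on ND and past the upper limit on HFD. With the median Ct of the array genes, Adipoq (-0.81) and Lep (-0.26) on ND and Retn on HFD (0.54) were between the limits. The log2 fold change on HFD minus that on ND was 4.58 for Adipoq, 3.56 for Lep and 3.80 for Retn. They took the 6th, 21st and 16th place from the highest, and the median over the 84 genes was 2.285. These differences between diets were not tested, since each rests on 4 single samples. The same opposite calls were made for 36 of the 84 array genes (42.9%). Normalised like a gene, the genomic DNA control well changed by -1.505 with the pool on ND and by 1.565 on HFD. Cfd rose on both diets, by 2.66 on ND and 7.45 on HFD.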

How the results depend on the processing

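Of 250 values of the 5 genes (25 log2 fold changes under 10 alternatives), 222 kept their side of the limits, 10 fell between the limits, 14 moved past a limit in the same direction and 4 were on the opposite side. The 4 were for HFD + *mol*-miR pool vs. HFD, Agt with Gapdh alone (0.688) and Actb alone (0.629), for HFD + *mol*-miR pool vs. ND, Agt with Hsp90ab1 alone (-1.024), and Retn in HFD + *mol*-miR pool against ND + *mol*-miR pool with the genomic DNA control subtracted (3.168). The value of Retn depends on the Ct limit of 35, to which its subtracted well in ND + *mol*-miR pool was set. The cause was otherwise not tested. The alternative without a Ct limit could not change any of these values, since the latest Ct of the 5 genes was 32.9. A limit of 32 could change only the values of Adipoq and Retn that use the HFD sample. Counts changed as follows. In HFD vs. ND, 1 gene in place of 0 was upregulated with Gusb alone, Hprt alone, Gapdh alone, the median Ct of the array genes or the mean of Gusb, Hprt and Hsp90ab1, the last chosen after seeing the data. In HFD + *mol*-miR pool vs. HFD, 1 in place of 0 was downregulated with Hprt alone, Hsp90ab1 alone or the median Ct. In ND + *mol*-miR pool vs. ND, and likewise for HFD + *mol*-miR pool vs. ND, 2 in place of 1 were upregulated with Gapdh alone or the median Ct. In ND + *mol*-miR pool vs. ND, 1 in place of 3 was downregulated with the median Ct or with fold limits of 4 and 0.25. Between the pool samples the upregulated genes were 0 in place of 1 with Gusb alone, Hsp90ab1 alone, the mean of Gusb, Hprt and Hsp90ab1, or fold limits of 2 and 0.5 or 4 and 0.25, and 2 with Gapdh alone, the median Ct or subtraction, which also left 1 in place of 3 downregulated. With a limit of 2 cycles, 1 in place of 3 genes was close to the genomic DNA control in HFD, and with 5 cycles 3 in place of 1 in HFD + *mol*-miR pool. The median of all 84 genes in HFD vs. ND was -2.53, and from -3.50 (Actb alone) to 0.16 (median Ct) over the alternatives. No paired analysis was possible because each group had 1 sample, and for the same reason no sample could be left out.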
